A study of Mus musculus with 8 samples.

Results

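Genes of the cytosolic ribosome and of the translation factors were examined in the right hippocampus of Cav3.2 knockout and wild-type mice, with and without trace fear conditioning. All probes with values whose single gene symbol starts with Rpl, Rps, Eif or Eef were taken, the Rps6k kinases were left out, and the brightest probe over the 8 arrays stood for each gene. This gave 83 genes, represented by 109 probes, of 11023 genes with a symbol on the array. They comprised 19 ribosomal proteins (13 of the large and 6 of the small subunit), 37 initiation factors, 7 elongation factors, 9 regulators of translation factors, 4 Argonaute genes that carry the old symbols Eif2c1 to Eif2c4, and 7 other genes with the prefix.

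Ribosomal proteins and ribosomal RNA form the 2 ribosomal subunits. Initiation factors bring the small subunit with the initiator tRNA to the start codon of an mRNA, and elongation factors then deliver aminoacyl-tRNAs and move the ribosome along. In neurons, translation is needed for lasting synaptic change and for the consolidation of fear memory, and it is controlled mainly through phosphorylation of eIF2 and through the mTOR pathway acting on the cap-binding factor eIF4E. Many mRNAs of this machinery start with a C followed by a run of pyrimidines, the 5′ terminal oligopyrimidine (TOP) motif, which couples their translation to mTOR.

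Right hippocampi of 3 male C57BL/6 mice, 6 to 8 weeks old, were pooled for each group, and each group had 2 arrays. Per the study's methods, the wild-type mice were C57BL/6J and the knockout line had been bred to a C57BL/6 background. The groups were trained Cav3.2-/- (KTR), naive Cav3.2-/- (KNR), trained wild type (WTR) and naive wild type (WNR), where trained mice underwent trace fear conditioning, a tone separated from a foot shock by an empty interval, and were sacrificed right after a test of contextual memory. Cav3.2 is the T-type calcium channel encoded by Cacna1h. It is not stated if the paired arrays of each group held RNA of different pools or of the same one, and a p-value here reflects array-to-array spread alone, possibly of technical origin. Values are quantile-normalized intensities on a linear scale, those below 100 were set to 100 before taking log2, and differences are log2 differences from a limma fit of all 8 arrays, with Benjamini-Hochberg adjustment over 16204 probes and a threshold of 0.05. A value after ± is the SE of the difference.

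The arrays of a group correlated at 0.9881 to 0.9913 (log2 intensities of all probes), and the median gap between the arrays of a group was 0.09 to 0.14 on the log2 scale for the translation genes and 0.13 to 0.15 for all genes. KNR array 1 and KTR array 2 lay at opposite ends of the first principal component, and both WNR arrays stood apart on the second. Cacna1h had intensities of 1036 and 1440 in KTR, 1551 and 1489 in KNR, 2084 and 2340 in WTR, against 2575 and 2385 in WNR. Where its probe lies relative to the deleted part is not known here, so this does not check the genotype. All measured markers of hippocampal neurons, the dentate gyrus, CA1, and CA2 and CA3 were above 100 on every array.

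To let the TOP motif be read directly, the sequence around the start site is shown for each gene that passed in at least 1 test below and has a RefSeq promoter (GRCm38.p6), 13 of 18 genes. Promoters were found for 67 of the 83 genes, 16 of the 19 ribosomal proteins among them. Each window runs 5′ to 3′ on the gene's strand, the annotated start is the 16th base, and capitals mark the longest C-led pyrimidine run that begins within 2 bases of it.
Rpl14 (chr9:120571502-120571531, +): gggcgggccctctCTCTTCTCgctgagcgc
Rpl23 (chr11:97782425-97782454, -): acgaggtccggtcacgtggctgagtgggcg
Rpl41 (chr10:128549154-128549183, -): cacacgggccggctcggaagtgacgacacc
Rplp0 (chr5:115559452-115559481, +): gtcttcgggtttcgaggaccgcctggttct
Rps3 (chr7:99483695-99483724, -): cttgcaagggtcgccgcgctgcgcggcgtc
Eif2s3x (chrX:94212637-94212666, -): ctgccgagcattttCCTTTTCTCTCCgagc
Eif3c (chr7:126566352-126566381, -): ctcacctgctcagagggactcggcagctta
Eif3g (chr9:20898576-20898605, -): tctttacccgggctgggagctgcgtggagt
Eif4h (chr5:134639395-134639424, -): gtgcgacttgcgatcaggcagcgcggcgga
Eif5b (chr1:37997995-37998024, +): ggcgcctgggttcccacctggccggcggct
Eif2c1 start 1 (chr4:126468569-126468598, -): tgcaggctccgcggcggcggcaacggaggc
Eif2c1 start 2 (chr4:126468617-126468646, -): tcgcgcctgcgcactggcagctactcgggc
Eif1ad (chr19:5366798-5366827, +): atccggctttcgatggCTTTTgtttctcca
Rps19bp1 (chr15:80264292-80264321, -): cagggcggaagtagctcgccgcgtgtgggc
Of the 13 genes, 3 (Rpl14, Eif2s3x and Eif1ad) hold such a run of at least 5 bases, and the lack of one says only that these letters are not at this annotated start. Among all 67 genes with a promoter, 18 hold one. A C followed by 4 bases, each C or T, stood exactly at the start in 5 of the 16 ribosomal protein genes (31.2%), in 2 of 30 initiation factor genes (6.67%), in 0 of 5 elongation factor genes, and in 3.01% of the 27025 genes with a promoter. Allowing the start to shift by up to 2 bases either way, the shares were 43.8% for ribosomal proteins, 23.3% for initiation factors and 10.6% for all genes. Only the sense strand was searched.

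Of the 83 genes, 81 passed the filter of more than 100 on at least 2 arrays and were tested, and 75 were above 100 on every array. Rpl28, a large subunit protein, was measured at 71 and 60 in KTR, 83 and 69 in KNR, 80 and 101 in WTR, against 43 and 62 in WNR, and Eif4ebp3, an eIF4E-binding inhibitor of initiation, was between 41 and 121, so neither was tested. At the other end, Rps21 lay between 57077 and 64838 and Rpl41 between 49268 and 64524, close to the highest value on any array (65483), which limits the differences these 2 small ribosomal proteins can show. Ribosomal protein mRNAs have near-identical pseudogene copies, and what the probes bind of them is not known here.

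The first question was what loss of Cav3.2 did in untrained mice. Comparing KNR with WNR, 7 of the 81 genes were higher and 0 lower (8.64% in all). Of the 10932 genes tested on the array, 8.08% passed, 4.4% higher and 3.68% lower, so the share of translation genes that passed was close to that of all genes. By unadjusted p under 0.05, 29 of the 81 passed in either direction, against 29.2% of all genes. The genes that rose were the ribosomal proteins Rpl14, Rpl23 and Rps3, the initiation factor Eif5b, the Argonaute Eif2c2 (Ago2), and Rps4y2 and Rps19bp1. Ribosomal proteins had a median log2 difference of 0.27, elongation factors 0.28 and initiation factors 0.10, against 0 for all genes. Of the 18 ribosomal proteins tested, 14 lay above 0, against 49.8% of all genes.

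Rpl14, a protein of the large subunit, had 388 and 317 in KNR, against 143 and 168 in WNR. Both knockout arrays were above both wild-type arrays, a difference of 1.18 ± 0.16 or 2.26-fold (adjusted p = 0.022). Rpl23, which lies at the interface between the subunits, had 15737 and 14039 in KNR and 10061 and 10712 in WNR, a difference of 0.52 ± 0.11 (adjusted p = 0.038). It was measured by 3 probes, and the other probes also passed, at 0.68 and 0.95. Rps3, at the mRNA entry of the small subunit, had 24651 and 26426 in KNR and 19344 and 18016 in WNR, 0.45 ± 0.10 higher (adjusted p = 0.047). These groups did not overlap for any of the 3 genes. Further ribosomal proteins did not pass but had non-overlapping arrays, among them Rps27 at 0.40 ± 0.11 (adjusted p = 0.062) and Rpl38 at 0.41 ± 0.11 (adjusted p = 0.067). In all, 13 of the 19 ribosomal proteins were higher in both KNR arrays than in both WNR arrays and 1, Rpl22, was lower, while 30.6% and 28.7% of all genes were higher and lower in this sense.

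**Figure D1:**
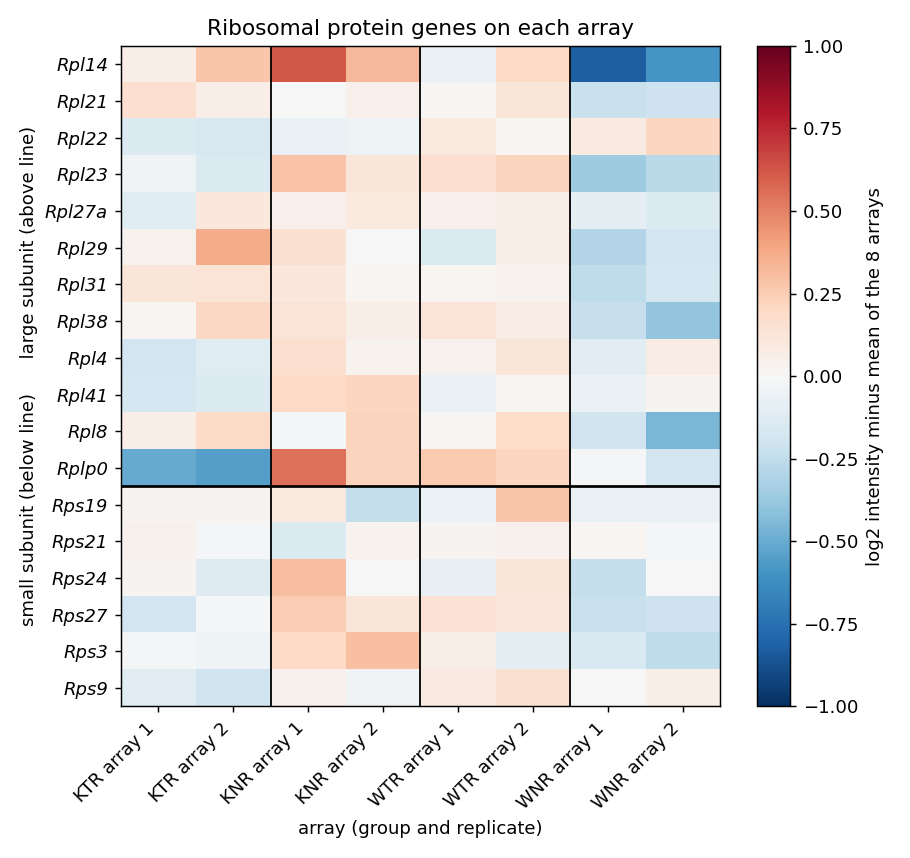
Ribosomal protein genes (rows) on the 8 arrays (columns, by group and replicate), coloured by log2 intensity minus the gene's mean over all arrays. Large subunit proteins are above the line and small subunit proteins below it. Both WNR columns are mostly blue, with Rpl14, Rpl23, Rpl38 and Rpl8 lowest there, and Rplp0 is lowest in the KTR columns.

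Eif5b, the GTPase that joins the subunits at the end of initiation, had 8330 and 9109 in KNR and 6215 and 6773 in WNR, 0.43 ± 0.10 higher (adjusted p = 0.0495). Its other probe was below 100 on 7 of the 8 arrays. Rps4y2 (now Rps4l), a paralogue of the small subunit protein Rps4x, had 757 and 750 in KNR and 373 and 479 in WNR, a 1.78-fold difference. Rps19bp1, a nucleolar protein that binds Rps19, had 1593 and 1660 in KNR and 1010 and 1029 in WNR, a 1.60-fold difference (adjusted p = 0.032 for both). Eif2c2 (Ago2), the slicing Argonaute of microRNA silencing, had 385 and 408 in KNR and 237 and 254 in WNR, a 1.61-fold difference (adjusted p = 0.023), but its dimmer probe measured 175 and 176 in KNR against 149 and 212 in WNR, a difference of -0.02.

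No translation gene passed on the lower side. The 3 largest negative differences at an unadjusted p under 0.05 were those of initiation factors. Eif5, the GTPase-activating protein of eIF2, differed by -0.44 ± 0.14 (adjusted p = 0.084), the eIF3 subunit Eif3c by -0.44 ± 0.10 (adjusted p = 0.051) and Eif4g2, a relative of eIF4G that does not bind the cap-binding factor, by -0.35 ± 0.10 (adjusted p = 0.067). None of these 3 passed, although their arrays did not overlap.

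The calls rested on a spread pooled over all groups. When KNR and WNR were fitted alone, limma called 0 of the 81 genes (27 at an unadjusted p under 0.05), and a form of SAM at the study's thresholds called 0. Leaving out WNR array 1, WNR array 2, KNR array 1 or KNR array 2 also left 0 calls, leaving out an array of WTR left 1 and an array of KTR left 4, while the ribosomal protein median stayed between 0.23 and 0.31 under all 21 alternatives. Alternatives that change only the spread, or leave out an array of another group, keep both group means and could scarcely move the ribosomal protein median. The same holds for the other pairwise comparisons below. The other class medians moved more. That of elongation factors was 0.16 without WNR array 1 and 0.14 without WNR array 2. That of initiation factors was between 0.02 and 0.05 without any single array of KNR or WNR.

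The second comparison asked what training did in wild-type mice. Comparing WTR with WNR, 4 of 81 genes were higher and 3 lower (8.64%), against 3.36% of all genes higher and 3.31% lower (6.67%). The higher side included 2 ribosomal proteins, and the lower side held initiation factors. The ribosomal protein median was 0.20, with 16 of 18 above 0 (48.8% of all genes), and the initiation and elongation factor medians were -0.01 and 0.03, against -0.01 for all genes. This comparison shares its WNR arrays with the one before, so that a low WNR level raises both. Of the 19 ribosomal proteins, 15 were higher on both WTR arrays than on both WNR arrays and 0 were lower, against 27.1% and 31.1% of all genes.

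Rpl14 had 241 and 290 in WTR, against 143 and 168 in WNR (0.77 ± 0.16 higher, adjusted p = 0.042). Rpl23 had 14451 and 15054 in WTR, against 10061 and 10712 in WNR (0.51 ± 0.11 higher, adjusted p = 0.043). Both genes were higher on both WTR arrays, as was Rps19bp1 with 1542 and 1846 in WTR, against 1010 and 1029 in WNR (0.73 ± 0.12, adjusted p = 0.032). Eif1ad, a nuclear protein with an eIF1A-like domain, had 1843 and 1661 in WTR, against 1230 and 1224 in WNR (0.51 ± 0.10, adjusted p = 0.040).

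The genes that fell were Eif3c, Eif4g2 and Eif4h, 3 of the 37 initiation factors. Eif3c, a core subunit of eIF3, which holds the small subunit during scanning, had 7117 and 7420 in WTR, against 11639 and 11346 in WNR (-0.66 ± 0.10, adjusted p = 0.029). Eif4g2 had 4961 and 4803 in WTR, against 6831 and 6941 in WNR (-0.50 ± 0.10, adjusted p = 0.037). Eif4h, which stimulates the helicase eIF4A, had 22744 and 23604 in WTR, against 33433 and 30080 in WNR (-0.45 ± 0.10, adjusted p = 0.049). All 3 were also lower in both KNR arrays than in both WNR arrays, without passing there. The second probes of Eif3c and Eif4g2 ran the same way with smaller differences. That of Eif3c had 1284 and 1219 in WTR against 1329 and 1382 in WNR, and that of Eif4g2 had 865 and 815 in WTR against 876 and 952 in WNR. Among the 10 measured genes of the eIF4A, eIF4B, eIF4E, eIF4G and eIF4H families, 8 lay below 0 in this comparison, with a median of -0.15.

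With WTR and WNR fitted alone, limma called 0 genes (22 at an unadjusted p under 0.05) and SAM 0. Leaving out any single array, of whichever group, also left 0 calls, with 15 to 25 genes at an unadjusted p under 0.05, and the ribosomal protein median ranged from 0.19 to 0.28 over the alternatives.

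**Figure D2:**
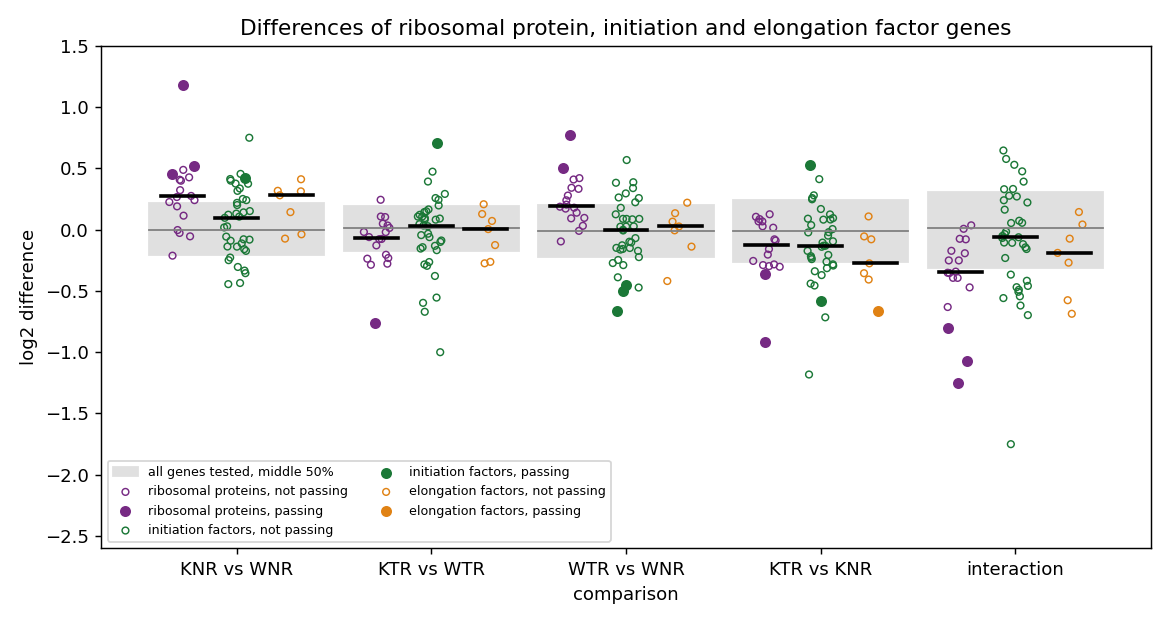
Log2 differences of ribosomal protein (purple), initiation factor (green) and elongation factor genes (orange) in the 4 comparisons and for the interaction. Each point is a gene, filled where it passed at an adjusted p under 0.05, black bars are medians, and grey boxes hold the middle 50% of all genes tested with their median as a grey line. The ribosomal protein medians are 0.27 in KNR vs WNR, 0.20 in WTR vs WNR and -0.35 for the interaction.

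What these comparisons share is the position of naive wild type. On both WNR arrays, 9 of 18 ribosomal proteins were lower than on all 6 other arrays (Rpl14, Rpl21, Rpl23, Rpl29, Rpl31, Rpl38, Rpl8, Rps27 and Rps3) and 0 were higher. Among all genes, 12.6% had both WNR arrays lowest and 13.2% had both highest. Of 37 initiation factors, 2 were lowest (Eif5b and Eif6) and 7 highest (Eif1ay, Eif2s1, Eif2s3x, Eif3c, Eif4g2, Eif4h and Eif5), and as a class they lay near their mean on the WNR arrays, with centred medians of -0.02 and 0.06. Centred on each gene's mean, the ribosomal protein median was 0 and -0.01 on the KTR arrays, 0.14 and 0.06 on the KNR arrays, 0.03 and 0.12 on the WTR arrays, and -0.17 and -0.18 on the WNR arrays.

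Other gene groups were also low in WNR. The 64 mitochondrial ribosomal proteins, products of nuclear genes that serve another ribosome, had medians of 0.31 in KNR against WNR and 0.35 in WTR against WNR, and 32 of the 64 were lowest on both WNR arrays. The 41 proteasome subunits, which degrade rather than make proteins, had medians of 0.26 and 0.18, and 11 of 41 were lowest there. Some marker lists also differed in WNR, in either direction. The summed intensity of the 4 measured meningeal fibroblast markers of 6 listed was 10486 to 10704 in KTR, 10878 to 11361 in KNR, 9629 to 10800 in WTR and 7701 to 8585 in WNR, and that of 5 of 6 choroid plexus markers was 22052 to 24368 in KTR, 20674 to 21139 in KNR, 28223 to 35054 in WTR and 17069 to 17766 in WNR. Astrocyte markers (5 of 6 genes) summed to 35889 to 39532 in KTR, 39951 to 43364 in KNR, 41396 to 44556 in WTR and 50565 to 50901 in WNR. The 4 CA2 and CA3 markers summed to 19542 to 19793 in KTR, 18802 to 19288 in KNR, 22835 to 23487 in WTR and 12983 to 14984 in WNR. Sums follow the brightest genes, and single markers did not all run with them. In KNR against WNR, the meningeal list had 2 genes higher and 1 lower (median 0.61) and the choroid plexus list 0 higher and 1 lower (median 0.04). The CA2 and CA3 list had 1 higher and 0 lower (median 0.12), and the astrocyte list 0 higher and 0 lower (median -0.18). Of all genes, 4.4% were higher and 3.68% lower. In WTR against WNR, the choroid plexus list had 3 genes higher and 0 lower (median 0.72). The meningeal list had 1 higher and 0 lower there (median 0.24), as did the CA2 and CA3 list (median 0.13). The astrocyte list had 0 higher and 0 lower (median -0.14), against 3.36% and 3.31% of all genes. The dentate gyrus markers were highest in WNR, with centred medians of -0.32 and -0.27 in KTR, 0.01 and 0 in KNR, -0.01 and 0.08 in WTR, against 0.29 and 0.28 in WNR. None of these markers was at 0, and Folr1 of the choroid plexus list was below 100 on some arrays. Their part in the ribosomal protein values was not tested, and in pooled tissue fewer cells of a type and less RNA per cell cannot be told apart.

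Over the 8 arrays the ribosomal proteins had a mean pairwise correlation of 0.27, against 0.068 for initiation factors, 0.14 for elongation factors and 0.0029 for all genes, and the mitochondrial ribosomal proteins had 0.34. These are descriptions, since the arrays share their groups. Splitting the ribosomal proteins by their start, the 6 tested genes with a pyrimidine run within 2 bases had a median of 0.33 in KNR against WNR and 0.26 in WTR against WNR, and the 9 without one had 0.23 and 0.18. For the interaction the medians were close, at -0.37 with a run and -0.35 without, and in KTR against WTR and KTR against KNR they were -0.04 and -0.14 with a run and -0.20 and -0.25 without. Rpl23, whose window above holds no run, was among the genes that rose.

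The third comparison set the genotypes against each other after training. Comparing KTR with WTR, 2 of 81 genes were higher and 1 lower (3.7%), against 0.741% of all genes higher and 1.23% lower (1.97%). The medians were -0.07 for ribosomal proteins, 0.03 for initiation factors and 0.01 for elongation factors, against 0.01 for all genes. Among the 19 ribosomal proteins, 1 was higher and 8 were lower on both KTR arrays than on both WTR arrays, against 28.8% and 26.2% of all genes. Eif3g, an eIF3 subunit with an RNA-binding domain, had 16199 and 16743 in KTR and 10262 and 9883 in WTR, 1.64-fold higher (0.71 ± 0.09, adjusted p = 0.026). Its second probe had 1479 and 1537 in KTR and 1395 and 1178 in WTR, a smaller difference in the same direction without overlap. Eif2c2 (Ago2) had 357 and 385 in KTR and 241 and 232 in WTR (0.65 ± 0.10, adjusted p = 0.039), whereas its dimmer probe had 112 and 106 in KTR and 108 and 129 in WTR. By its brightest probe, Eif2c2 was therefore higher in knockout than in wild-type mice at either state of training, and its interaction was -0.04 ± 0.14.

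Rplp0, the stalk protein that recruits translation GTPases and a common reference gene in quantitative PCR, had 103 and 79 in KTR and 175 and 170 in WTR, lower by 0.76 ± 0.13 on the log2 scale after the value of 79 was set to 100 (adjusted p = 0.046). Its second probe had 129 and 117 in KTR and 132 and 163 in WTR, also without overlap. Both Rplp0 probes were dim, between 79 and 214 on all arrays. Genes that did not pass included Eif4b, an activator of eIF4A, at 0.47 ± 0.12 (adjusted p = 0.081), the cap-binding protein Eif4e at -0.60 ± 0.19 (adjusted p = 0.13) and Eif2b4, the delta subunit of the eIF2 exchange factor, at -1.0 ± 0.32 (adjusted p = 0.13). Eif4e had 608 and 426 in KTR and 784 and 755 in WTR, and Eif2b4 had 269 and 162 in KTR and 312 and 560 in WTR, so the arrays of each group were far apart for Eif2b4. Fitted alone, KTR and WTR gave 0 calls by limma (13 at an unadjusted p under 0.05) and 0 by SAM. The count was also 0 without any single array other than KTR array 1, and 1 without that array.

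The fourth comparison asked what training did in knockout mice. Comparing KTR with KNR, 2 of 81 genes were higher and 5 lower (8.64%), against 6.36% of all genes higher and 9.07% lower (15.4%). The medians were -0.12 for ribosomal proteins, -0.13 for initiation factors and -0.27 for elongation factors, against -0.01 for all genes. Of the elongation factors, 6 of 7 lay below 0, against 5600 of the 10932 genes tested. Eef2 was among the 6 by its brightest probe (-0.41), while its other probes lay above 0 (0.24 and 0.30). Of the 19 ribosomal proteins, 2 were higher and 9 lower on both KTR arrays than on both KNR arrays, against 33.2% and 34.4% of all genes. Rplp0 fell to 103 and 79 in KTR, against 214 and 171 in KNR (-0.92 ± 0.13, adjusted p = 0.019). Rps4y2 had 416 and 514 in KTR and 757 and 750 in KNR (-0.70 ± 0.15, adjusted p = 0.033). The arrays did not overlap for either gene. Rpl41, the smallest ribosomal protein, had 49268 and 50640 in KTR and 63993 and 64524 in KNR (-0.36 ± 0.10, adjusted p = 0.046), with the KNR values near the top of the scale. Beside these falls, the 4 CA1 markers summed to 4008 to 4788 in KTR, 6185 to 7129 in KNR, 6358 to 6775 in WTR and 6121 to 6407 in WNR. The sum of 5 of 6 oligodendrocyte markers was 53505 to 59276 in KTR and 71317 to 72273 in KNR. The choroid plexus sum went the other way, at 22052 to 24368 in KTR and 20674 to 21139 in KNR. Of its 5 genes, 3 were higher and 1 lower in KTR (median 0.46), against 6.36% and 9.07% of all genes. The part of these markers was not tested.

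Among factors, Eef1d, the delta subunit of the exchange factor that recharges eEF1A, had 2313 and 2723 in KTR and 3830 and 4105 in KNR (-0.66 ± 0.13, adjusted p = 0.029). Its dimmer probe did not follow, with 400 and 354 in KTR and 421 and 368 in KNR. Eif2s3x, the X-linked gene of the gamma subunit of eIF2, had 1041 and 801 in KTR and 1377 and 1353 in KNR (-0.58 ± 0.14, adjusted p = 0.039), and its Y-linked partner Eif2s3y had 1849 and 1459 in KTR and 1846 and 1751 in KNR. The genes that rose were Eif6, which keeps the large subunit from joining too early, with 5360 and 5951 in KTR and 3790 and 4042 in KNR (0.53 ± 0.10, adjusted p = 0.027), and Eif2c1 (Ago1), with 128 and 148 in KTR and 93 and 101 in KNR (0.45 ± 0.11, adjusted p = 0.040), close to the floor of 100. The next on the higher side, Eif4e2, a cap-binding relative of eIF4E linked to repression, did not pass at 0.41 ± 0.13 (adjusted p = 0.074). Eif4g3, a paralogue of Eif4g1, was the 1 gene whose arrays within a group were more than 2-fold apart, at 4551 and 1573 in KTR.

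Fitted alone, KTR and KNR gave 0 calls by limma (16 at an unadjusted p under 0.05) and 0 by SAM. Without KNR array 1 or without KTR array 2, the arrays at the ends of the first principal component, the joint fit gave 0 calls as well (11 and 15 at an unadjusted p under 0.05), and the initiation factor median was -0.08 and 0.00, or 0.07 without both arrays. Without KNR array 2 the fit gave 2 calls, and without an array of WTR or WNR it gave 4.

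The interaction of genotype and training is the training difference in knockout minus that in wild-type mice. It passed for 6 of 81 genes, all below 0 (7.41%, against 5.16% of all genes, of which 1.98% above and 3.17% below 0). They were Rplp0, Rpl14, Rpl23, Rps4y2, Rps19bp1 and Eif1ad. The ribosomal protein median was -0.35, with 16 of 18 below 0, and the medians were -0.06 for initiation factors, -0.19 for elongation factors and 0.01 for all genes. Mitochondrial ribosomal proteins had -0.53 and proteasome subunits -0.36. Since the interaction contains all 4 groups, the low WNR values enter it too.

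The shapes behind the 6 interactions were not the same. Rpl14 was at -1.07 ± 0.23 (adjusted p = 0.047): its KTR arrays, at 265 and 306, overlapped with WTR at 241 and 290, and WNR alone was low. Rps19bp1 had the same form, with 1593 and 1392 in KTR and WNR alone low (-0.85 ± 0.18, adjusted p = 0.044). Rpl23 (-0.80 ± 0.15, adjusted p = 0.041) was intermediate in KTR by its brightest probe, at 12569 and 11639, between the KNR and WTR arrays above and the WNR arrays below. Its middle probe was highest in KTR, at 2791 and 2395, and did not pass for the interaction (-0.48, limma, adjusted p = 0.11). Its dimmest probe passed (-1.15, adjusted p = 0.032). Eif1ad (-0.88 ± 0.15, adjusted p = 0.037) was crossed, since its KTR values of 1182 and 1304 were close to the WNR values of 1230 and 1224, with KNR at 1632 and 1580 and WTR at 1843 and 1661. Rps4y2 (-1.07 ± 0.22, adjusted p = 0.044) was high in KNR, and Rplp0 (-1.25 ± 0.19, adjusted p = 0.032) was low in KTR by its brightest probe. The second Rplp0 probe had 129 and 117 in KTR, overlapping with 110 and 132 in WNR. It did not pass for the interaction (-0.83, limma, adjusted p = 0.063).

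**Figure D3:**
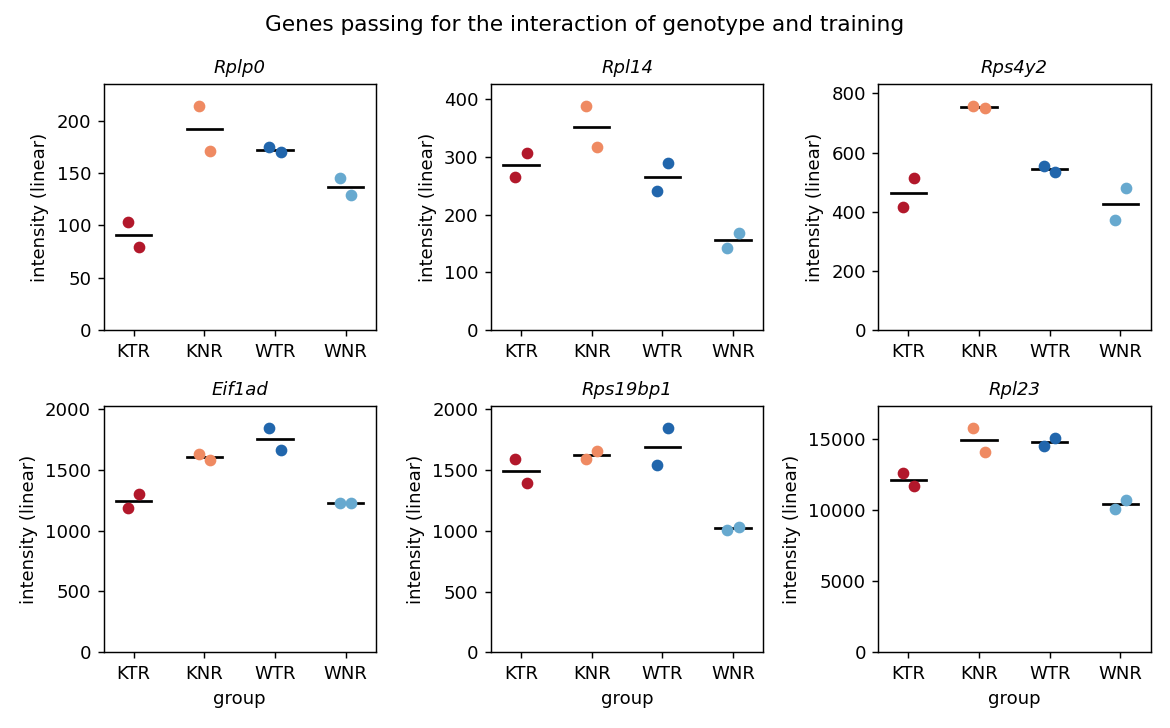
Linear intensity on each array (points, 2 per group) and group mean (lines) of the 6 genes that passed for the interaction, with KTR, KNR, WTR and WNR from left to right and the axis starting at 0. Rpl14 and Rps19bp1 are low in WNR only, Eif1ad is low in KTR and WNR, Rps4y2 is high in KNR and Rplp0 is lowest in KTR.

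On the higher side no gene passed for the interaction. The 3 largest at an unadjusted p under 0.05 were Eif4enif1, which carries eIF4E into the nucleus, at 0.73 ± 0.23 (adjusted p = 0.097), Eif4b at 0.65 ± 0.17 (adjusted p = 0.066) and Eif4h at 0.58 ± 0.14 (adjusted p = 0.060). Leaving out any single array left 0 interactions by limma, with 17 to 24 genes at an unadjusted p under 0.05, while the ribosomal protein median ranged from -0.38 to -0.26 over 20 alternatives.

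None of the factors and regulators at the main control points described next passed in any comparison by its brightest probe. Eif2s1, the subunit of eIF2 whose phosphorylation shuts down initiation, had 104 and 108 in KTR, 123 and 111 in KNR, 108 and 91 in WTR, against 132 and 157 in WNR, near the floor throughout, and its largest difference was -0.47 ± 0.12 in WTR against WNR (adjusted p = 0.066). Eif2s2, the beta subunit, had 351 and 322 in KTR, 372 and 324 in KNR, 313 and 292 in WTR, against 372 and 367 in WNR. The second Eif2s2 probe lay between 208 and 400 over all arrays. The eIF2 kinases were measured too. The haem-regulated kinase Eif2ak1 had 1209 and 1073 in KTR, 1133 and 1083 in KNR, 970 and 964 in WTR, against 1167 and 1142 in WNR. Eif2ak2 (PKR) was between 72 and 129, Eif2ak3 (PERK) between 844 and 1294 and Eif2ak4 (GCN2) between 294 and 418 over all arrays. Their differences ranged from -0.29 ± 0.11 (Eif2ak2, WTR against WNR, adjusted p = 0.16) to 0.24 ± 0.10 (Eif2ak1, KTR against WTR, adjusted p = 0.22). The dimmer Eif2ak1 probe, in contrast, passed as lower in WTR than in WNR, with 168 and 198 against 296 and 320 (-0.76).

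At the cap, the scaffold Eif4g1 had 2805 and 2609 in KTR, 2928 and 2850 in KNR, 2651 and 2464 in WTR, against 3020 and 2660 in WNR. The helicase Eif4a1 was between 5049 and 6812, and its neuronally abundant paralogue Eif4a2 between 617 and 984. None of the 4 pairwise differences of these 3 genes exceeded 0.29 in size. The eIF4E-binding protein Eif4ebp1 had 242 and 216 in KTR, 243 and 213 in KNR, 175 and 203 in WTR, against 162 and 161 in WNR. It was higher in KNR than in WNR without overlap, but did not pass (0.49 ± 0.12, adjusted p = 0.056). Eif4ebp2, the main form in brain, was between 658 and 1149 by its brightest probe, with a largest difference of 0.33 ± 0.18 in WTR against WNR (adjusted p = 0.28). Its dimmer probe had 485 and 622 in KNR against 329 and 395 in WNR. That was 0.61 ± 0.15 higher without overlap, but did not pass (limma, adjusted p = 0.055).

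For elongation, Eef1a2, the eEF1A form of neurons and muscle, had 17410 and 20327 in KTR, 19863 and 19863 in KNR, 15602 and 17006 in WTR, against 18289 and 14613 in WNR. By this brightest probe it differed by at most 0.28 ± 0.14 (KNR against WNR, adjusted p = 0.24). Its dimmer probe had 1334 and 1075 in KTR against 1671 and 1618 in KNR (-0.46 ± 0.15, limma, adjusted p = 0.075). Of the exchange factor's subunits, Eef1b2 had 7669 and 8481 in KTR, 9744 and 10920 in KNR, 9566 and 9783 in WTR, against 7465 and 9236 in WNR, with -0.36 ± 0.13 in KTR against KNR (adjusted p = 0.11). Eef1g lay between 20358 and 25342 with overlapping arrays in every comparison. The eEF2 kinase Eef2k, which halts elongation on calcium signals, had 826 and 716 in KTR, 767 and 801 in KNR, 812 and 829 in WTR, against 814 and 808 in WNR, with no difference over 0.09 in size.

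Several genes with more than 1 probe gave answers that depended on the probe. Eef2, the translocase, had 4586 and 3733 in KTR, 5508 and 5465 in KNR, 4849 and 4202 in WTR, against 4982 and 4952 in WNR by its brightest probe, which passed nowhere. Its dimmest probe had 4234 and 4192 in KTR, 3536 and 3320 in KNR, 2619 and 2592 in WTR, against 3806 and 3474 in WNR, and passed as higher in KTR than in WTR (0.69), lower in WTR than in WNR (-0.48) and for the interaction (0.78). The middle Eef2 probe ran with the dimmest one, at 4766 and 5084 in KTR against 3626 and 3616 in WTR. In every comparison but WTR against WNR, and for the interaction, 2 of the 3 Eef2 probes thus differed in direction from the one counted here. In KNR against WNR the counted probe gave 0.14 and the others -0.10 and -0.09. For the interaction it gave -0.27, against 0.54 and 0.78.

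Rps9, a small subunit protein needed for accurate decoding, had 37096 and 34995 in KTR, 41283 and 39149 in KNR, 42697 and 44661 in WTR, against 40244 and 41674 in WNR by its brightest probe. This probe was lower in KTR than in WTR without overlap but did not pass (-0.28 ± 0.10, adjusted p = 0.15). Its other probe had 607 and 929 in KTR, 2056 and 2093 in KNR, 1774 and 2493 in WTR, against 1843 and 1928 in WNR. It passed as lower in KTR than in WTR (-1.49) and in KTR than in KNR (-1.47), and for the interaction (-1.62). Eif5a, which frees ribosomes stalled at prolines, had 3 probes. The brightest had 30589 and 32425 in KTR and 29890 and 27782 in WTR. The middle one had 2795 and 2138 in KTR and 3123 and 2463 in WTR (-0.18, not passed). The dimmest had 1001 and 975 in KTR and 1724 and 2206 in WTR (-0.98, passed). It also passed as lower in KTR than in KNR (-0.75) and for the interaction (-1.22). Eif4e3, a cap-binding relative of eIF4E, passed by its dim probe as higher in KNR than in WNR, with 149 and 150 against 114 and 114 (0.39), and as lower in KTR than in KNR, with 87 and 107 against 149 and 150 (-0.53). Its bright probe differed by -0.08 and 0.09. The dimmer Eif2c2 probe passed as lower in KTR than in KNR, with 112 and 106 against 175 and 176 (-0.68), where the brightest differed by -0.10. Over all the dimmer probes tested, 18 of 25 had the sign of the brightest probe in KNR against WNR, 22 in WTR against WNR, 17 in KTR against KNR and 8 in KTR against WTR. For ribosomal proteins alone these counts were 7, 8, 7 and 5 of 8.

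**Figure D4:**
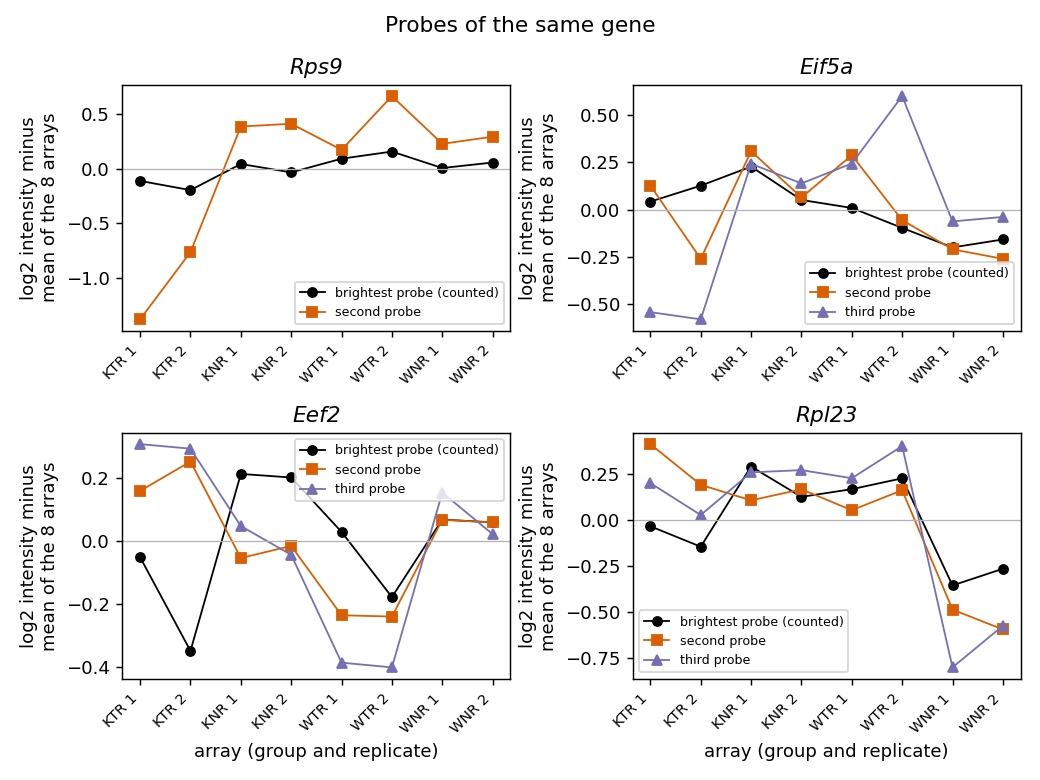
Log2 intensity of each probe minus its mean over the 8 arrays, for the probes of Rps9, Eif5a, Eef2 and Rpl23, with arrays grouped as KTR, KNR, WTR and WNR from left to right. Lines only join the points of a probe. The 3 Rpl23 probes are all lowest in WNR, while the dimmest Rps9 and Eif5a probes are lowest in KTR, where the brightest ones move less, and the Eef2 probes part in KTR.

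Genes that act around the ribosome were taken from 7 lists, with 129 of 168 genes measured, again by the brightest probe. The genes named below as higher or lower passed at an adjusted p of 0.011 to 0.049 (limma). Of the 129 genes, 7 passed in KNR against WNR (8.08% of all genes did), 6 in KTR against WTR (1.97%) and 10 in WTR against WNR (6.67%). In KTR against KNR 19 passed (15.4% of all genes), and 9 for the interaction (5.16%). The share of the lists was below that of all genes in KNR against WNR and in KTR against KNR. Limma on each pair of groups alone kept 0 of these calls in all 4 comparisons. The calls in KNR against WNR, in WTR against WNR and for the interaction did not hold without WNR array 1 or without WNR array 2. Rptor, Nemf and Ppp1r15b were among the list genes with more than 1 probe, and their other probes are not given here. The calls in KTR against KNR, those of the stress response genes below included, did not hold without KNR array 1 or without KTR array 2. Of the 6 in KTR against WTR, the joint fit kept 0 to 2 without any single array (Nemf, or Nemf and Rraga). Among 24 measured genes of the kinase pathways that control translation, Rptor, the mTORC1 subunit that binds its substrates, was lower in KNR than in WNR (-0.73) and in WTR than in WNR (-0.74). It had 5780 and 5807 in KTR, 5377 and 5382 in KNR, 5454 and 5177 in WTR, against 9008 and 8790 in WNR, so naive wild type alone was high. Tsc2, an inhibitor of mTORC1, behaved likewise, with 1567 and 1650 in KTR, 1957 and 2083 in KNR, 1677 and 1802 in WTR, against 2837 and 3618 in WNR. An activator and an inhibitor of the same kinase were thus both high in WNR. Tsc2 lies on chromosome 17, as Cacna1h does, and any bearing of this on its values was not tested. Rraga, a GTPase that places mTORC1 on lysosomes, had 788 and 766 in KTR, 2786 and 1732 in KNR, 2391 and 2030 in WTR, against 1940 and 1866 in WNR (-1.50 in KTR against either of WTR and KNR). Further calls of this list were Lamtor1, higher in WTR than in WNR (0.60), and Lamtor2 and Rictor, lower in KTR than in KNR (-0.71 and -1.13). Impact, a repressor of the eIF2 kinase GCN2, was higher in knockout mice whether trained (0.83) or naive (0.54), with 689 and 607 in KTR, 680 and 626 in KNR, 389 and 339 in WTR, against 439 and 457 in WNR.

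In the other lists, several genes were lower in KTR. Nemf, which marks nascent chains on stalled ribosomes, had 268 and 250 in KTR, 709 and 709 in KNR, 729 and 799 in WTR, against 657 and 538 in WNR (-1.56 in KTR against WTR). Ppp1r15b, which directs the phosphatase that restores eIF2, had 245 and 215 in KTR, 465 and 392 in KNR, 443 and 431 in WTR, against 439 and 441 in WNR (-0.93 in KTR against WTR). Of 13 measured genes listed for the eIF2 stress response, 5 were lower and 0 higher in KTR than in KNR (38.5%, against 15.4% of all genes). The 5 were Psat1, Slc7a11, Cebpb, Nupr1 and Ppp1r15b, the last of which acts on eIF2 itself. The 34 measured ribosome assembly genes had 0 higher and 3 lower there (Nmd3, Rrn3 and Tsr1). This was 8.82%, below the 15.4% of all genes, and their median there was 0.01. Their medians in KNR against WNR and WTR against WNR, 0.12 and 0.05, were lower than those of the ribosomal proteins. Of 18 aminoacyl-tRNA synthetases, 1 was higher and 0 lower in KTR than in WTR (5.56%, against 1.97% of all genes): Iars, with 292 and 296 against 194 and 180 (0.66). In KTR against KNR, Iars was higher (0.41) and Rars, Cars and Aars were lower (-0.49, -0.70 and -0.76), 22.2% against 15.4% of all genes, and Rars was also lower in WTR than in WNR (-0.50). The helicase Dhx29, which helps scanning through structured leaders, had 2949 and 2937 in KTR, 2246 and 2340 in KNR, 2526 and 2300 in WTR, against 3627 and 3539 in WNR, and passed as lower in KNR than in WNR (-0.64) and in WTR than in WNR (-0.57), and as higher in KTR than in KNR (0.36). None of the 8 release and recycling factors passed in any comparison (0 to 3 of 8 at an unadjusted p under 0.05). Their differences still ran from -2.09 to 0.43 in KNR against WNR (median 0.03), and -2.09 was also the minimum of all genes tested. They reached 1.69 in KTR against KNR and 2.05 for the interaction.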

How the data were processed

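RNA was labelled with Cy5 and hybridized to 1-colour arrays of 29922 gene probes. Per the labels and the study's methods, the authors set a floor of 100 and quantile-normalized the values, and the deposited intensity values are on a linear scale and reach below 100. In 16383 probes values were given, and 13539 were empty on all arrays. Of the probes with values, 13072 had 1 gene symbol, 0 several and 3311 none.

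Values were floored at 100 and log2-transformed. A joint limma (3.58.1, R 4.3.3) fit of 4 group means to the 8 arrays was used, which departs from the study's pairwise SAM at q under 0.01 and more than 2-fold. That SAM (rewritten in a plain form: median s as the added constant, all 6 label orders, no estimate of the null share) and pairwise limma were run as alternatives, as were other floors, filters, a variance trend, probe averaging, updated symbols, a replicate block and leaving out arrays. The members, lists and fit were chosen with earlier results of these data known. Named genes were up to 6 per direction that passed in each comparison, or the 3 largest at an unadjusted p under 0.05 where fewer than 3 passed, plus a fixed set of central factors and genes whose probes disagreed. Genes named from the 7 lists, the start windows and the naive wild-type pattern were chosen after their values were seen. The number of arrays limits the precision.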

Additional observations from a re-analysis of the deposited data

Results flagged for a closer look

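For 6 genes the effect of training differed between the genotypes by the interaction term of the joint limma fit. The interaction was -1.25 for Rplp0, -1.07 for Rpl14, -1.07 for Rps4y2, -0.88 for Eif1ad, -0.85 for Rps19bp1 and -0.80 for Rpl23. Rplp0 and Rps4y2 passed as lower in trained than in naive knockout mice, and Rpl14, Rps19bp1, Rpl23 and Eif1ad as higher in trained than in naive wild-type mice. None of the 6 interactions passed after any single array was left out. Groups of 2 arrays cannot be searched for outlying samples.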

How the results depend on the processing

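Counts of translation genes that passed depended on how the spread between arrays was estimated. Ribosomal protein medians kept their sign in all 5 tests under the alternatives run, whereas those of initiation and elongation factors did not in every test. Fitting each pair of groups alone gave 0 calls in all 4 comparisons by limma (at an unadjusted p under 0.05, 27 genes in KNR vs WNR, 13 in KTR vs WTR, 22 in WTR vs WNR and 16 in KTR vs KNR), and the form of SAM gave 0 calls in all 4. A variance trend in limma gave 16, 5, 11 and 14 calls in these comparisons in that order and 14 for the interaction. A floor of 200 gave 13 calls in KNR vs WNR and a ribosomal protein median of -0.30 for the interaction. With probes above 200 on at least 4 arrays, the ribosomal protein median in KTR vs WTR was -0.02. Averaging the probes of a gene left 1 call in KTR vs WTR, with medians of -0.03 for initiation and -0.05 for elongation factors there, and an elongation factor median of -0.38 for the interaction. Of 39 named gene results, none changed direction under any alternative. Alternatives that change only the estimate of the spread leave each difference as it was and could not turn a sign. The same holds for a pairwise difference when an array of another group is left out.

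Leaving out 1 array at a time gave 0 to 4 calls in KNR vs WNR, 0 to 1 in KTR vs WTR, 0 in WTR vs WNR, 0 to 6 in KTR vs KNR and 0 for the interaction. The ribosomal protein medians then ranged from 0.23 to 0.31 in KNR vs WNR, -0.11 to -0.03 in KTR vs WTR, 0.19 to 0.28 in WTR vs WNR, -0.15 to -0.10 in KTR vs KNR and -0.38 to -0.26 for the interaction. Those of initiation factors ranged from 0.02 to 0.10, 0.00 to 0.05, -0.06 to 0.04, -0.15 to 0.00 and -0.10 to 0.06 in the same order, and those of elongation factors from 0.14 to 0.28, -0.11 to 0.08, -0.07 to 0.08, -0.31 to -0.21 and -0.27 to -0.10. Without KNR array 1 and KTR array 2 together, 0 genes passed in any of the 5 tests (22 in KNR vs WNR, 12 in KTR vs WTR, 24 in WTR vs WNR, 7 in KTR vs KNR and 15 for the interaction at an unadjusted p under 0.05), and the initiation factor medians were 0.02 in KNR vs WNR, 0.07 in KTR vs KNR and 0.04 for the interaction. Why the medians moved was not tested.

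The replicate numbers share no stated origin. Deviations of same-numbered arrays correlated at 0.27 (WTR and WNR) and 0.44 (KTR and KNR), but at -0.24 to -0.38 between the genotypes, so the numbers were not taken to pair samples. With the replicate block, limma called 0 genes in KNR vs WNR, 0 in KTR vs WTR, 0 in WTR vs WNR, 4 in KTR vs KNR and 0 for the interaction (27, 14, 21, 16 and 20 at an unadjusted p under 0.05). With the numbers crossed in the knockout groups, an alternative chosen after seeing the data, the counts were 17 in KNR vs WNR, 8 in KTR vs WTR, 10 in WTR vs WNR, 13 in KTR vs KNR and 12 for the interaction.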
